A study of Zea mays with 6 samples.

Results

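Transcript levels of 6 genes of the endoplasmic reticulum (ER) were followed in maize endosperm. They are the chaperone genes bip1 (GRMZM2G114793) and bip2 (GRMZM2G415007), the disulfide isomerase genes pdi1 (GRMZM2G091481) and pdi2 (GRMZM2G163421), the calreticulin gene crt2 (GRMZM2G358059) and floury1 (GRMZM2G094532), which encodes a protein of the ER membrane around protein bodies. The 6 genes were picked by identifier for their function, with earlier results of these data known. They are 6 of the 39448 genes in the deposited tables. All 6 had a value in every library and passed the filter on low values, which left 17272 tested genes. The samples were 3 wild-type (WT) and 3 floury3 (fl3) endosperm libraries, taken 10 days after pollination from maize (Zea mays) grown in the field in summer. No allele dose, inbred background or pooling of ears is stated for either genotype.

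Storage proteins called zeins enter the ER of endosperm cells while they are made and are packed there into protein bodies. BiP, an Hsp70-type chaperone, binds unfolded chains in the ER lumen, protein disulfide isomerases form and reshuffle disulfide bonds, and calreticulin holds glycoproteins until they fold. When unfolded protein builds up, membrane sensors start the unfolded protein response, which raises transcripts for chaperones and for the degradation of misfolded chains, and BiP is the usual marker of that response. In maize, BiP is known to be abundant in mutants such as floury2 that carry a defective zein.

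The labelled fl3 libraries had more floury3 transcript (GRMZM2G006585) than WT, at 3158 ± 67.3 against 2260 ± 164 FPKM (SD, n = 3), where FPKM is the number of fragments scaled by gene length and library total. Library sums ran from 465741 to 480602 FPKM, and read depth is unknown. The tissue label was checked against zein transcripts, which summed to between 33387 and 41995 FPKM in WT and between 11918 and 16942 FPKM in fl3. Markers of other compartments summed to less than the zeins. The embryo and aleurone sums were higher in every fl3 library than in any WT library. Those of the basal transfer layer overlapped. By the limma call defined below, 43.5% of all tested genes were higher in fl3 and 23.8% lower. Summed FPKM of 4 embryo genes (3 of 4 called higher in fl3, none at 0) lay between 148 and 162 in WT and between 225 and 257 in fl3. For 12 genes of the basal transfer layer (3 of 11 tested called higher, 1 lower, none at 0) it lay between 3870 and 5217 in WT and between 3830 and 7029 in fl3. Of the 2 aleurone genes found, c1 was listed at 0 throughout and cr4 was higher in fl3, at sums of 4.13 to 5.14 and 15.1 to 16.2. The 9 genes of green tissue summed to at most 1.22 FPKM in a library. In bulk endosperm, fewer cells of a type and less RNA per cell cannot be told apart, and the part of these compartments in the results that follow was not tested.

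The 6 genes did not move together. Transcripts of pdi2, crt2 and floury1 rose in fl3, those of bip2 and pdi1 fell, and bip1 did not pass the test. A gene is said to have risen or fallen where limma, fitted to log2(FPKM + 1) of all 17272 tested genes, gave a Benjamini-Hochberg adjusted p under 0.05. That held for 67.3% of tested genes in either direction, for 43.5% as rises and for 23.8% as falls, so 3 rises and 2 falls among 6 genes are close to the background of this comparison. The libraries of both genotypes did not overlap for 5 of the 6 genes and for 71.7% of tested genes. The median log2 fold change (fl3 minus WT) was 0.14 over all tested genes and 0.28 over the 6. Under median-of-ratios scaling the first median was 0.002 and the calls went from 64.7% rises to 50.4%. Upper-quartile scaling gave 55.6% rises and quantile normalization 48.3%. Small changes are therefore to be read against that shift.

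**Figure D1:**
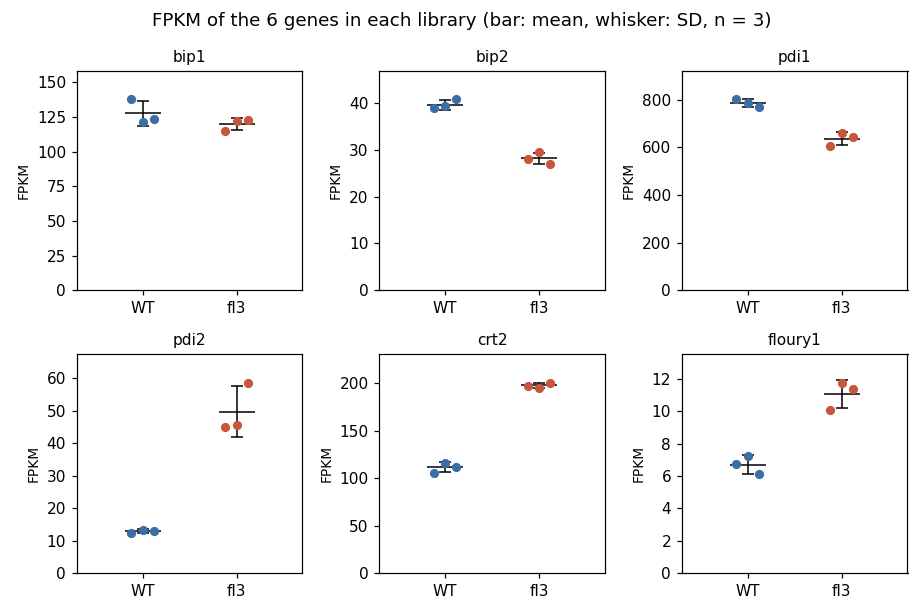
FPKM of each of the 6 genes in the 3 WT and 3 fl3 libraries, 1 panel per gene with its own axis from 0; points are libraries, the bar is the mean and the whisker the SD. The fl3 libraries lie above WT for pdi2, crt2 and floury1, below WT for bip2 and pdi1, and within the WT range or just under it for bip1.

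Of the chaperones, bip1 was at 138, 121 and 124 FPKM in WT replicates 1 to 3 and at 115, 122 and 123 FPKM in fl3 replicates 1 to 3. The ranges overlapped, and WT replicate 1 was the highest of the 6 libraries. The means were 127.6 ± 8.81 and 120.0 ± 4.32 FPKM (SD, n = 3), a log2 fold change of -0.09 (SE 0.06, 95% interval -0.23 to 0.06, limma adjusted p = 0.26). The upper limit depended on single libraries: it was 0.10 without WT replicate 1, where the log2 fold change was -0.03, and 0.11 without fl3 replicate 1, where it was -0.06. The value was -0.25 under median-of-ratios scaling, where it passed as a fall (limma adjusted p = 0.00983), -0.19 under upper-quartile scaling, where it also passed (limma adjusted p = 0.0352), and -0.14 under quantile normalization, where it did not (limma adjusted p = 0.0626).

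The second BiP gene, bip2, was at 38.9, 39.3 and 40.8 FPKM in WT and at 28.0, 29.5 and 27.1 FPKM in fl3. Every fl3 library was below every WT library. Its mean fell 1.41-fold, from 39.7 ± 1.02 to 28.2 ± 1.22 FPKM (SD, n = 3; limma estimate -0.48 on the log2 scale, SE 0.06, adjusted p = 8.97e-05). Both genes encode closely similar proteins, so the way reads were divided between them is uncertain, and their sum is less exposed to it. The sum was 177, 161 and 165 FPKM in WT and 143, 152 and 149.6 FPKM in fl3, a 1.13-fold difference of means. All 3 fl3 sums were below the WT sums, and the exact two-sided permutation test gave p = 0.1, the smallest that 3 libraries against 3 allow. The ratio of bip1 to bip2 within a library was 3.54, 3.09 and 3.03 in WT and 4.11, 4.15 and 4.53 in fl3 (exact permutation p = 0.1). A rise of BiP transcripts was therefore not seen in either gene or in their sum.

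Of the disulfide isomerases, pdi1 was the most abundant of the 6 genes in every library. It ranked 46 by mean FPKM among the tested genes in WT and 53 in fl3. It was at 801, 787 and 771 FPKM in WT and at 607, 658 and 644 FPKM in fl3. All fl3 libraries were below all WT libraries, and the mean fell 1.24-fold from 786 ± 15.2 to 636 ± 26.3 FPKM (SD, n = 3; limma estimate -0.31 on the log2 scale, SE 0.06, adjusted p = 0.00282). Its log2 fold change was -0.47 when scaled by median of ratios and -0.16 after quantile normalization, and passed in both.

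The largest fold change of the 6 was that of pdi2, a second gene of the same class, although pdi1 and crt2 differed by more FPKM. It was at 12.3, 13.5 and 13.1 FPKM in WT and at 44.9, 45.7 and 58.7 FPKM in fl3. The lowest fl3 value was well above the highest WT value, and fl3 replicate 3 stood above the other fl3 libraries. The mean rose 3.84-fold from 13.0 ± 0.573 to 49.8 ± 7.72 FPKM (SD, n = 3; limma estimate 1.85 on the log2 scale, SE 0.10, adjusted p = 1.42e-06), and 2.04% of tested genes had a higher log2 fold change. The ratio of pdi1 to pdi2 went from 64.9, 58.5 and 58.8 in the WT libraries to 13.5, 14.4 and 11.0 in fl3, a 4.69-fold difference of means (exact permutation p = 0.1). With pdi1 lower and pdi2 higher in every fl3 library, the ratio could not overlap between genotypes. Being taken within a library, this ratio does not change when a library is multiplied by a factor; it was not computed after quantile normalization.

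The gene crt2 encodes calreticulin, a calcium-binding chaperone that recognises sugar chains on folding proteins. It was at 106, 116 and 112 FPKM in WT and at 197, 195 and 201 FPKM in fl3, with the fl3 libraries far apart from WT and close to each other. The mean rose 1.77-fold from 111 ± 5.23 to 198 ± 2.71 FPKM (SD, n = 3; limma estimate 0.82 on the log2 scale, SE 0.06, adjusted p = 4.29e-06). Of tested genes 14.3% had a higher log2 fold change. Set against the BiP sum of the same library, crt2 went from 0.60, 0.72 and 0.68 to 1.38, 1.29 and 1.34 (exact permutation p = 0.1). With crt2 higher and the BiP sum lower in every fl3 library, this ratio could not overlap between genotypes.

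The protein-body gene floury1 was the lowest of the 6. FLOURY1 is known to place 22-kDa alpha-zein inside protein bodies, and kernels that lack it are opaque. It was at 6.77, 7.24 and 6.12 FPKM in WT and at 10.1, 11.8 and 11.3 FPKM in fl3. No fl3 library was as low as any WT library, and the mean rose 1.65-fold from 6.71 ± 0.562 to 11.1 ± 0.869 FPKM (SD, n = 3; limma estimate 0.65 on the log2 scale, SE 0.08, adjusted p = 0.00019). Of tested genes 20.4% had a higher log2 fold change.

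By level per gene length, the order in WT was pdi1, bip1, crt2, bip2, pdi2 and floury1. In fl3 it was pdi1, crt2, bip1, pdi2, bip2 and floury1. Thus crt2 stood below bip1 in WT and above it in fl3, and pdi2 stood below bip2 in WT and above it in fl3. No neighbours in either order had overlapping libraries. The 6 genes together summed to 1085 ± 18.0 FPKM in WT and 1043 ± 35.3 FPKM in fl3, and pdi1 made up most of each sum. Every fl3 sum was below every WT sum, the nearest being 1064 in fl3 and 1067 in WT (exact permutation p = 0.1). The log2 difference was -0.06, and -0.22 under median-of-ratios scaling.

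The genes with a symbol whose log2(FPKM + 1) followed each gene most closely over the 6 libraries were looked up among 1314 genes averaging 5 FPKM or more. They are a description only, since the libraries form 2 genotype groups and the likeness mostly reflects the gap between them. For bip2 the closest by Pearson correlation were x34.2 (GRMZM5G876303, 0.998) and magi14814 (GRMZM2G160770, 0.997), and for pdi1 they were BSD6 (GRMZM2G167207, 0.995) and kin15 (GRMZM2G054418, 0.993). For pdi2 they were HAK25 (GRMZM2G375116) and TIFY12 (GRMZM2G086920), both at 0.998. For crt2, Siz1c (GRMZM2G002999) and Mlo8 (GRMZM5G881803) both reached 0.9996. For floury1 they were Rbl1 (GRMZM2G033828, 0.995) and CBL2-1 (GRMZM2G069500, 0.994). The closest to bip1, arpp40 (GRMZM2G126821) and gpc4 (GRMZM2G176307), reached 0.933 and 0.932. Above 0.95 there were 348 genes for pdi2, 347 for crt2, 206 for floury1, 163 for bip2, 152 for pdi1 and none for bip1.

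Other disulfide isomerase genes went both ways, as pdi1 and pdi2 did. Of 13 further identifiers, 12 were tested, with 6 rises, 3 falls and 3 that missed the threshold, near the background of 43.5% rises and 23.8% falls. Their median log2 fold change was 0.20, beside 0.14 for every gene tested. Median-of-ratios scaling gave 4 rises and 4 falls with a median of 0.04, and quantile normalization 4 rises and 3 falls. PDIL5-1 (GRMZM2G073628) rose from 66.8 ± 1.30 to 95.2 ± 5.49 FPKM (SD, n = 3; limma adjusted p = 8.8e-05), and pdi5 (GRMZM2G014076) rose from 10.7 ± 0.991 to 15.6 ± 1.62 FPKM (limma adjusted p = 0.00127). Another identifier under the symbol PDIL5-1, GRMZM2G443655, averaged 0.66 FPKM in WT and 0.37 FPKM in fl3, with overlapping libraries, and was not tested. A low gene annotated PDIL5-3 (GRMZM2G007385) fell from 6.22 ± 0.852 to 3.58 ± 0.557 FPKM (limma adjusted p = 0.00112). Under the symbol pdi4 stand 2 gene models. GRMZM2G033829 rose by a log2 fold change of 0.53 and GRMZM2G034143 fell by 0.28 on that scale. Both identifiers also match an unnamed neighbouring gene in the reference, so which of them is pdi4 is uncertain. The highest log2 fold change among the 12 was 0.53, against 1.85 for pdi2.

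Summed over all 15 disulfide isomerase identifiers, the level was 1227 ± 15.0 FPKM in WT and 1203 ± 48.4 FPKM in fl3, with overlapping libraries (exact permutation p = 0.4). That overlap held on the deposited scale, where the log2 difference was -0.03. It was -0.19 under median-of-ratios scaling, -0.13 under upper-quartile scaling and -0.09 when rescaled without zein genes (exact permutation p = 0.1 for each). The makeup of that sum differed. The share of pdi1 was 64.4%, 64.6% and 63.2% in the WT libraries and 52.8%, 52.9% and 53.0% in fl3, and that of pdi2 was 0.99%, 1.11% and 1.08% in WT and 3.91%, 3.67% and 4.83% in fl3. Neither share overlapped between genotypes (exact permutation p = 0.1 for each).

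**Figure D2:**
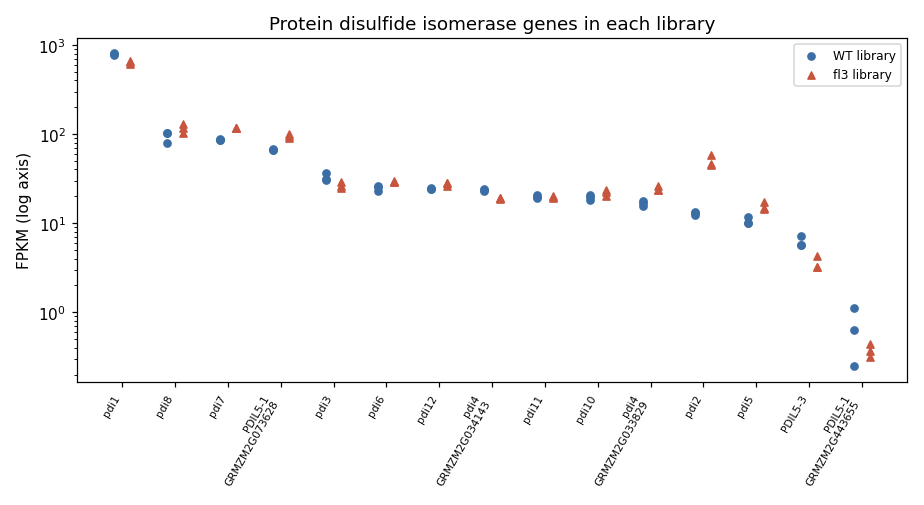
FPKM on a log axis of the 15 disulfide isomerase gene models, ordered by WT mean, with circles for WT libraries and triangles for fl3 libraries. The gap between genotypes is widest for pdi2, while pdi1 lies far above the others in both.

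Degradation genes were represented by the derlins, membrane proteins through which misfolded chains leave the ER. Of 5 identifiers 4 rose and 1 did not pass, at a median log2 fold change of 0.32 beside 0.14 for all tested genes; median-of-ratios scaling left 3 rises. Rises made up 43.5% of all tested genes, and 33.8% under that scaling. DER1.2 (GRMZM2G143817) was at 3.71, 4.49 and 3.53 FPKM in WT and at 13.1, 17.2 and 14.0 FPKM in fl3, so that even the lowest fl3 library was far above WT. Its 3.77-fold rise (limma estimate 1.68 on the log2 scale, SE 0.12, adjusted p = 5.02e-06) was close in size to that of pdi2. Both models of derlin2 rose, GRMZM2G082976 from 20.6 ± 0.971 to 25.9 ± 1.06 FPKM (limma adjusted p = 0.00158) and GRMZM2G384070, which also matches an unnamed neighbour, from 3.88 ± 0.311 to 7.35 ± 0.363 FPKM (limma adjusted p = 4.81e-05). The rise of derlin1 (GRMZM2G117388), from 10.9 ± 0.299 to 12.6 ± 0.326 FPKM, passed (limma adjusted p = 0.0242), but under none of 4 other scalings. Its log2 fold change was 0.03 with median-of-ratios scaling, 0.09 with upper-quartile scaling, 0.04 with quantile normalization and 0.13 when rescaled without zein genes. It also missed the threshold without WT replicate 1, WT replicate 2 or fl3 replicate 3 (limma adjusted p = 0.0562, 0.0649 and 0.0761). The derlins are related in sequence, and reads shared between DER1.2 and derlin1 would be divided in an uncertain way. For derlin4 (GRMZM2G112609) the means were 13.0 ± 1.11 and 12.8 ± 1.06 FPKM.

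The symbols searched for regulators of the response gave 1 gene. It is bZIP17 (GRMZM2G103647), whose Arabidopsis namesake is a membrane-bound transcription factor released under ER stress. The match is by symbol alone, and whether the maize gene has that role was not tested. It was at 8.97, 9.43 and 10.1 FPKM in WT and at 3.53, 4.90 and 4.48 FPKM in fl3. Every fl3 library was lower, and the mean fell 2.21-fold from 9.51 ± 0.584 to 4.30 ± 0.701 FPKM (SD, n = 3; limma estimate -0.99 on the log2 scale, SE 0.11, adjusted p = 5.75e-05). FPKM per gene cannot show the splicing or cleavage by which such factors are activated. IRE1, bZIP60 and GRP94 were not analysed here.

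Calnexin CNX (GRMZM2G022180), the membrane-bound relative of calreticulin, was at 39.3 ± 1.07 FPKM in WT and 37.9 ± 1.54 FPKM in fl3 (SD, n = 3; log2 fold change -0.05, 95% interval -0.18 to 0.07, limma adjusted p = 0.435), and passed as a fall at -0.21 under median-of-ratios scaling (limma adjusted p = 0.00863) and at -0.15 under upper-quartile scaling (limma adjusted p = 0.0351). The signal recognition particle gene SRP9 (GRMZM2G046576), which acts in bringing chains to the ER, was at 36.7 ± 1.56 and 35.3 ± 2.19 FPKM (limma adjusted p = 0.473), and passed as a fall under median-of-ratios scaling (limma adjusted p = 0.0145). The gene dad1 (GRMZM5G847530), a subunit of the enzyme that attaches sugar chains, was at 184 ± 19.0 and 182 ± 10.6 FPKM (limma adjusted p = 0.903). Over all 23 folding and quality control identifiers beside the 6 genes, O10 included, 22 were tested. There were 10 rises, 5 falls and 7 below the threshold for a call, and the median was 0.17. These are 45.5% rises and 22.7% falls, near the 43.5% and 23.8% of all tested genes. Median-of-ratios scaling gave 7 rises and 8 falls, and quantile normalization 7 and 5.

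**Figure D3:**
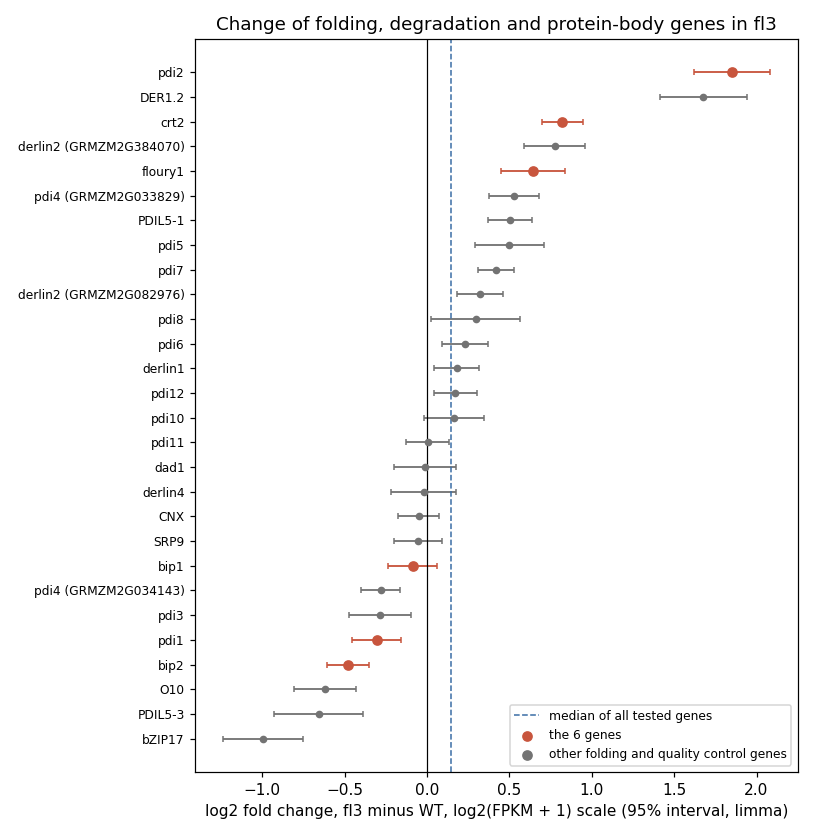
Log2 fold change (fl3 minus WT, log2(FPKM + 1) scale) with its 95% interval from limma for the 6 genes and 22 other folding, degradation and protein-body genes, with a dashed line at the median of all tested genes, 0.14. The genes spread to both sides of that line, from bZIP17 at -0.99 to pdi2 at 1.85, and bip1 lies between 0 and the other BiP gene.

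Protein-body genes moved in opposite directions. O10 (GRMZM2G346263), opaque10, encodes a protein-body protein that binds zeins and FLOURY1. It was at 12.4, 13.2 and 13.3 FPKM in WT and at 7.51, 9.10 and 7.75 FPKM in fl3. The fl3 libraries were all lower, with a mean 1.60-fold below WT (limma estimate -0.62 on the log2 scale, SE 0.08, adjusted p = 0.000193). In WT floury1 was the lower of the pair, and in fl3 it was the higher. Their ratio went from 0.55, 0.55 and 0.46 to 1.34, 1.29 and 1.46, a 2.64-fold difference of means (exact permutation p = 0.1). With floury1 higher and O10 lower in every fl3 library, this ratio could not overlap, and its test adds nothing to the single genes.

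The zeins are the main load of this ER. Their summed level went from 38882 ± 4773 to 14832 ± 2607 FPKM over 26 identifiers (SD, n = 3), a 2.62-fold difference of means (exact permutation p = 0.1). Alpha-zein copies are near-identical and zein genes without a symbol are not in the sum. Single zeins differed by unlike amounts. The means of gz27 (GRMZM2G138727) were 14122 FPKM in WT and 8630 FPKM in fl3, a 1.64-fold difference. Those of z1C1_4 (GRMZM2G044625) were 1904 and 32.7 FPKM, a 58.2-fold difference. The sum therefore stands for no single class of zein. Set against that sum, BiP, pdi1, crt2 and floury1 were all higher in fl3. A gene at the same level in both genotypes would also be higher on this measure, by about 2.62-fold. The direction alone therefore says little about the numerator. BiP transcripts per 1000 zein FPKM were 5.29, 3.89 and 3.92 in WT and 12.0, 9.71 and 8.83 in fl3, a 2.33-fold difference. The difference was 2.13-fold for pdi1, 4.72-fold for crt2 and 4.33-fold for floury1. For each of these ratios no libraries overlapped (exact permutation p = 0.1). For BiP and pdi1 the numerator was lower in fl3, so the higher ratio came from the zein sum. For crt2 and floury1 the numerators rose 1.77-fold and 1.65-fold, less than the zein sum fell. With numerator higher and zein sum lower in every fl3 library, the ratios of crt2 and floury1 could not overlap.

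**Figure D4:**
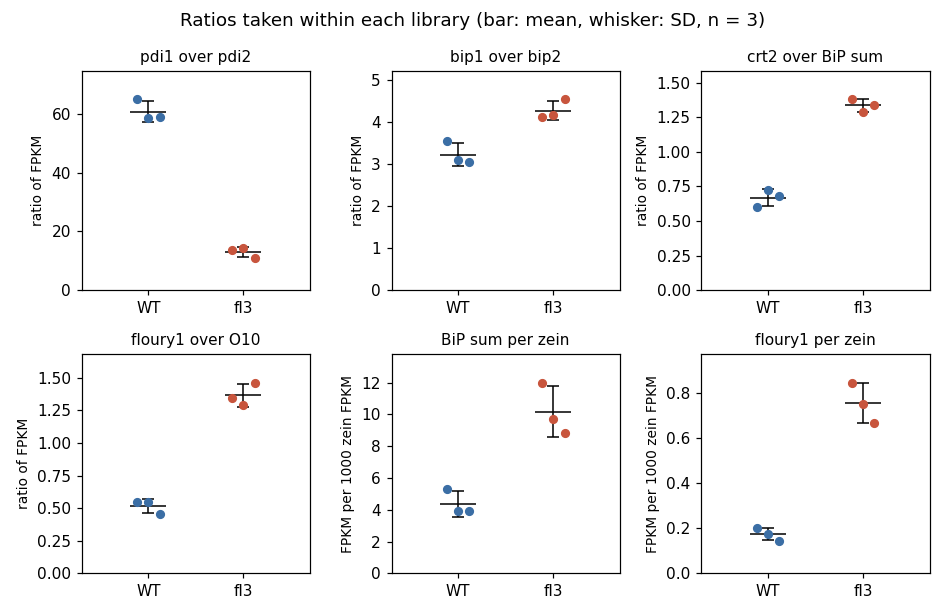
Ratios of FPKM taken within each library for the 3 WT and 3 fl3 libraries, with each axis from 0, the bar at the mean and the whisker the SD. The BiP sum is bip1 plus bip2, and the lower middle and lower right panels divide by the summed FPKM of 26 zein identifiers. In fl3 pdi1 over pdi2 is lower, and the other 5 ratios are higher, with no overlap in any panel.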

How the data were processed

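RNA of WT and fl3 endosperm was sequenced on an Illumina HiSeq instrument, per the labels' protocols, and the authors deposited 1 table of FPKM values per library. FastQC, TopHat, Bowtie2 and the build B73 RefGen_v3 are named in the submitters' processing notes; neither the program that made the FPKM values nor its annotation or strand setting is given in these sources. Whole-read steps were sought in low values by comparing WT replicate 1 with each other library. At most 5.83% of low genes shared the commonest ratio between 2 libraries within 1%. With depth unknown and no baseline for that share, it cannot show that steps are absent. Counts were not recovered, and counting intervals were left out.

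Genes averaging 1 FPKM or more were tested with limma 3.58.1 in R 4.3.3 on log2(FPKM + 1), with a mean-variance trend, a single genotype term, two-sided p-values and Benjamini-Hochberg adjustment over all 17272 genes. This scale understates changes of low genes. Folds are ratios of mean FPKM. Sums and ratios were compared by exact two-sided permutation tests (SciPy 1.17.1). The design text calls the replicates independent and biological.

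Symbols came from RefSeq's gene table for Zm-B73-REFERENCE-NAM-5.0; all 6 genes matched 1 gene each. Since the build differs, no coordinates are given. No sequences were used. The 6 genes and the lists were chosen with earlier results of these data known. Lists were searched by symbol, and after the files were opened hits of other function were dropped (CNX5, EMB5, LEAFY-like zfl1, SRP1A, SRP2B, srp30, srp31, srp32). Named are the 6 genes and up to 4 called genes per list by size of change. Also named are all genes found under regulator symbols and the 2 closest profiles per gene. The second models of pdi4 and PDIL5-1 and the uncalled CNX, SRP9, dad1 and derlin4 were added after their values were seen. Alternatives covered pseudocount, filter, scaling, variance model, library weights, replicate block and leaving out each library. Python 3.11.15, pandas 2.3.3 and matplotlib 3.10.9 were used for tables and plots.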

Additional observations from a re-analysis of the deposited data

How the results depend on the processing

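Of the 102 values of the 6 genes under alternatives, 100 kept their direction and their side of the threshold. The exceptions were bip1 under median-of-ratios scaling (-0.25) and upper-quartile scaling (-0.19), where its fall passed. Across all alternatives the log2 fold change ran from -0.25 to -0.03 for bip1 (adjusted p by limma 0.00983 to 0.652), -0.64 to -0.45 for bip2, -0.47 to -0.16 for pdi1, 1.69 to 1.92 for pdi2, 0.66 to 0.85 for crt2 and 0.47 to 0.71 for floury1. With a minimum mean of 5 FPKM, which tests fewer genes, 4771 genes rose. Without 1 library at a time, 6888 to 7357 genes rose and 3613 to 4007 fell. Of genes uncalled in the fit reported, pdi8 (GRMZM2G389173) passed as a rise under library weights (log2 fold change 0.34). It also passed without WT replicate 1 (0.36) and without fl3 replicate 1 (0.38). Without fl3 replicate 1, pdi10 (GRMZM2G113629) passed as well (0.23). The sign turned for the uncalled pdi11, dad1 and derlin4 only. For pdi11 (GRMZM2G176443), at 0.004 in the fit reported, it was -0.15 under median-of-ratios scaling, where it passed, and -0.0953, -0.0965, -0.0539 and -0.00516 under upper-quartile scaling, quantile normalization, rescaling without zein genes and library weights; without 1 library at a time it ran from -0.0218 to 0.0366. For dad1 it was 0.0252 under library weights and ran from -0.0583 to 0.0711 without 1 library, and for derlin4 from -0.0877 to 0.0442. The summed disulfide isomerases, lower in fl3 by a log2 difference of -0.03, ran from -0.0537 to 0.0033 without 1 library, the latter without fl3 replicate 1. Under median-of-ratios scaling, upper-quartile scaling and rescaling without zein genes that sum was lower by -0.19, -0.13 and -0.09. Other called genes missed the threshold in places: pdi3 without fl3 replicate 3 (-0.24), pdi6 under 3 scalings (0.07 to 0.14), and pdi12 under 4 scalings and without any 1 library except fl3 replicate 3 (0.01 to 0.18); the cause was not tested. With the replicate number as a block, 7240 genes rose and 3897 fell, and derlin1 and pdi12 (log2 fold changes of 0.18 and 0.17) were the only ones of the 28 folding and protein-body genes tested to lose a call. Same-numbered libraries deviated together at correlations from -0.15 to 0.07, and differently numbered ones at -0.14 to 0.13. With 3 libraries per genotype, these values cannot tell whether same-numbered libraries share more than a number. Without read counts, the counting error of low genes such as floury1 is unknown.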
